A study of Mus musculus with 3 samples.

Results

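A set of 9 genes that hold back signalling through the small GTPase RAS were followed in a map of Argonaute 2 (Ago2) binding in mouse neuroblastoma cells. They were picked by name: the Sprouty genes Spry1, Spry2 and Spry4, the Spred genes Spred1, Spred2 and Spred3, the GTPase-activating proteins Rasa1 and Nf1, and the phosphatase Dusp6. All 9 were found among the 21028 protein-coding genes for which the annotation gives a 3′UTR. The map came from 3 HITS-CLIP libraries of N2A cells, a mouse neuroblastoma line, which formed 1 untreated group labelled basal, so libraries, strands and genes could be compared but no conditions. In this assay ultraviolet light fixes a protein to the RNA it touches, the protein is pulled down, and the RNA fragments bound to it are sequenced. Each sample was a pellet of N2A cells grown in medium with serum, irradiated first at 400 and then repeatedly at 200 mJ/cm2, and precipitated with the anti-Ago2 clone 2D4. No label states that the replicates were separate cultures, so the spread between them may be technical.

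Ago2 carries a microRNA (miRNA), which pairs through its seed, the bases near its 5′ end, with complementary stretches that lie mostly in 3′UTRs, and this lowers the output of the mRNA. Sprouty and Spred proteins are induced or activated by receptor tyrosine kinase signalling and dampen the RAS to ERK cascade. Spred proteins recruit Nf1, which like Rasa1 speeds up GTP hydrolysis by RAS, and Dusp6 removes the activating phosphates from ERK. Dusp6 thus acts downstream of RAS, and the name RAS inhibitors is used below for the entire set for short. miR-21 is known for targeting Sprouty and Spred transcripts in other cells.

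The miRNAs whose seed matches lay in these 3′UTRs at the places described here are shown first, because the seed fixes which stretch they can pair with. Mature sequences are those of RefSeq (GRCm38.p6), with the seed, bases 2 to 8, in capitals. The 9 seeds all differ from each other.
miR-21a-5p: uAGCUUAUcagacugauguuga
miR-23a-3p: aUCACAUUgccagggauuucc
miR-31-5p: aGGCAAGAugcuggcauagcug
miR-137-3p: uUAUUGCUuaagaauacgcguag
miR-144-3p: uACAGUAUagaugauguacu
miR-186-5p: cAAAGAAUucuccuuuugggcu
miR-223-3p: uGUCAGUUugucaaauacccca
miR-381-3p: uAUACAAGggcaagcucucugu
miR-411-5p: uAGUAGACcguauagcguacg

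Both matches to miR-21a-5p in the 9 genes, in Spry1 and Spry2, are printed next, followed by 9 of the 10 matches to the other miRNAs that lay in 3′UTR stretches covered by peaks of every library. The tenth, to miR-411-5p in Spry4, is given by position only. Each line gives 30 bases of the transcript strand, 5′ to 3′, from the mouse genome (GRCm38). Capitals mark the bases that match positions 2 to 8 of the miRNA, together with a following A where there is one. A match with that A is called an 8mer.
Spry1, miR-21a-5p: aagtaaccatgtaagtgcttaaATAAGCTA
Spry2, miR-21a-5p: agaagttggagacccacattgcATAAGCTA
Spry2, miR-23a-3p: taatatgttgtacattcggaagAATGTGAA
Spred1, miR-137-3p: ggatttgtggaagctgttggcaAGCAATAt
Spred1, miR-31-5p, first match: gctgttggcaagcaatatggaaTCTTGCCg
Spred1, miR-186-5p: atgggactttttaaagatttgaATTCTTTA
Spred1, miR-31-5p, other match: gaactatgacatattaaactttTCTTGCCc
Rasa1, miR-223-3p: ttggaaaaggaactatgaaatcAACTGACA
Rasa1, miR-144-3p: tcttgctgtatactttttaaaaATACTGTg
Rasa1, miR-186-5p: tactttttaaaaatactgtgctATTCTTTc
Dusp6, miR-381-3p: tcacttgacagtgtttgtttggCTTGTATt

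The deposited table listed intervals called as peaks in each library, with no read counts, so the depth behind a peak is unknown and the lack of a peak does not mean that Ago2 was absent. Replicates 1, 2 and 3 held 711377, 498071 and 829936 peaks, and peaks of at most 85 nt made up 71.6%, 61.4% and 52.8% of them. RNA levels were not measured in these libraries, and a 3′UTR with few peaks cannot be told apart from a scarce transcript. Nor can a 3′UTR with many peaks be told apart from an abundant transcript. The shares over all genes and over genes of like length, given below, include genes that N2A cells may not express. As a check of the cell type, 12 of 15 neuronal or neuroblastoma marker genes had exon peaks on their own strand in every library, while Th, an enzyme of catecholamine synthesis, had 0 in each. Of 13 markers of other cell types 4 (Ptprc, Aqp4, Mbp and Pecam1) also had exon peaks in every library and Csf1r had 0 in each, so a peak in all libraries did not by itself separate cell types.

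Ago2 peaks were found on the 3′UTRs of 8 of the 9 RAS inhibitors in every library, and Spry1 was the exception. Over all genes 23.9% had a same-strand 3′UTR peak in all 3 libraries. The 9 genes held 41, 136 and 121 3′UTR peaks in replicates 1, 2 and 3 on the strand of the gene, against 7, 5 and 2 on the opposite strand. Only Spry4 had an opposite-strand peak in every library, a rule that 2.63% of all genes met. The same-strand peaks thus outnumbered the opposite-strand ones in each library, and replicate 1 had the fewest of them although replicate 2 had the smallest total.

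Peaks that fell on the same stretch in each library were then sought. A recurrent region was defined as at least 8 nt of 3′UTR covered by same-strand peaks of all 3 libraries. Of the 9 genes 7 had such regions, 31 in all with a summed length of 2509 nt and a median of 81 nt. Among all genes 14.3% had a recurrent region, and on the opposite strand 0.737% did against 0 of the 9 genes. Without replicate 1 the number of regions was 60, and with peaks of 86 to 200 nt alone it was 15, with 0 in Spry2 and Dusp6. That filter drops wide peaks as well as narrow ones, among them replicate 2 peaks of up to 395 nt in Spry2 and 662 nt in Dusp6. With every peak trimmed by 30 nt on each side, the length taken to be padding, there were 23 regions with a summed length of 624 nt and a median of 24 nt. No test was made of these counts, since the genes were chosen by name with results of these data known.

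Long 3′UTRs collect peaks more often, so the genes were also set beside genes of like length, in 5 classes of equal size. In the class of 686 to 1304 nt a peak in every library was found for 20.8% of genes and a recurrent region for 12.7%, and Spry2 and Dusp6 had both while Spry1 had neither. In the class of 1305 to 2385 nt, where the shares were 33.8% and 20.1%, Rasa1 had both. In the class of 2385 nt and over, all of Spry4, Spred1, Spred2, Spred3 and Nf1 had a peak in every library, as did 51% of the class. Of these 5 genes Spred3 alone lacked a recurrent region, which 30.3% of the class had.

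**Figure D1:**
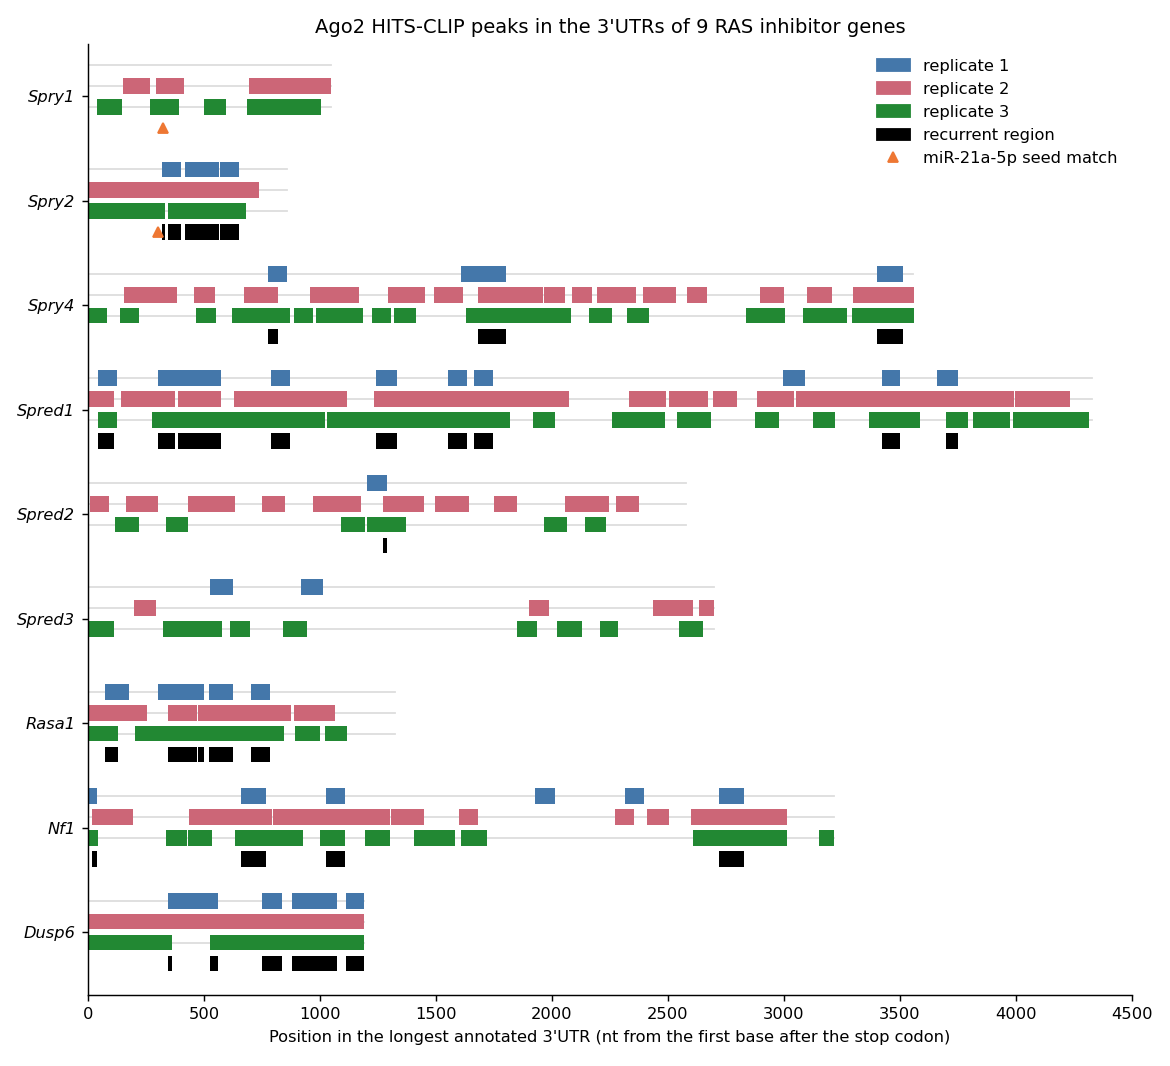
Peaks of replicates 1 to 3 (blue, red and green bars), recurrent regions (black) and miR-21a-5p seed matches (triangles) along the longest annotated 3′UTR of each gene, in nt from the stop codon. Spred1 has the most recurrent regions, 9, Spry1 and Spred3 have 0, and both triangles lie under deposited peaks of replicates 2 and 3 and not of replicate 1.

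**Figure D2:**
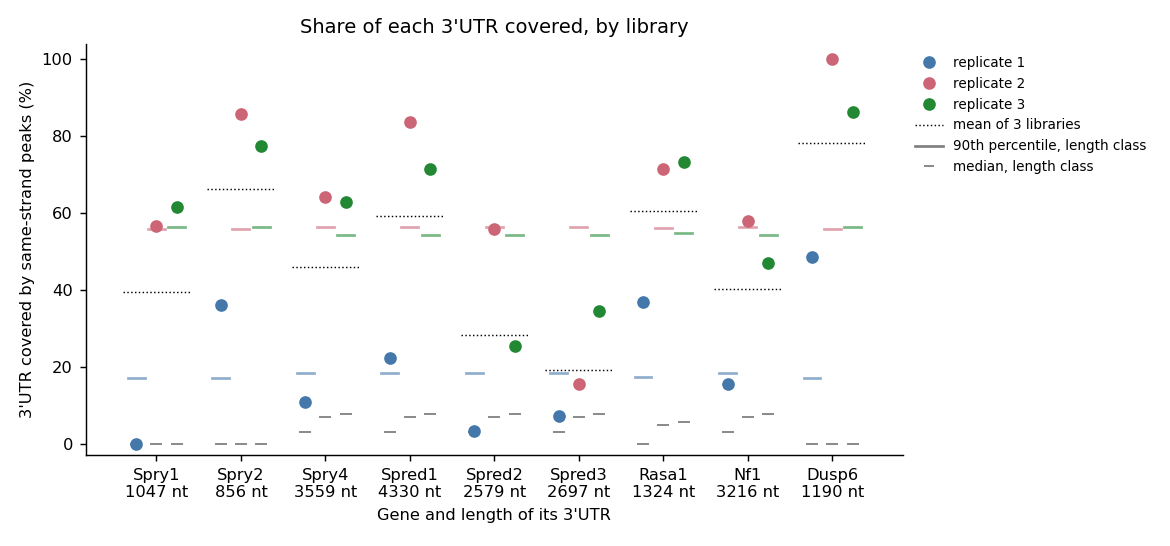
Share of each 3′UTR covered by same-strand peaks in replicates 1 to 3 (points), with the mean of the 3 libraries (dotted line) and, for genes of the same length class in that library, the 90th percentile (coloured bar) and the median (grey dash). Dusp6 reaches 100% in replicate 2, and Spry1 lies at 0% in replicate 1.

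Spry1 had peaks in only part of the libraries. Its 3′UTR of 1047 nt (chr3:37643552-37644598, plus strand) held 0, 5 and 6 peaks in replicates 1, 2 and 3, covering 0%, 56.5% and 61.7% of it. In replicates 2 and 3 that was more than in 90.1% and 91.5% of genes of its length class. Replicate 1 had 0 same-strand peaks over the entire gene, where replicates 2 and 3 had 10 and 8, and so no recurrent region could form. The mean coverage of 39.4% had an SD of 34.2 (n = 3).

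Spry2, its close relative, was covered in every library. Its 3′UTR of 856 nt (chr14:105891947-105892802, minus strand) held 4, 5 and 7 peaks, which covered 36.0%, 85.9% and 77.3% of it (66.4% ± 26.7, SD, n = 3). Each library placed it above at least 95.8% of genes of its length class. The 4 recurrent regions lay between positions 321 and 648 of the 3′UTR, counted from the base after the stop codon, and together took up 34.1% of its length. They were 9, 56, 145 and 82 nt long.

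miR-21a-5p was looked for in all 9 genes because of its known link with this family. Its hairpin, Mir21a, was overlapped by 2, 1 and 1 same-strand peaks in replicates 1, 2 and 3. The 3′UTRs of the 9 genes held 2 matches to its seed, ATAAGCT on the transcript strand, and both were 8mers. The match in Spry1 lay at chr3:37643873-37643879, position 322 of the 3′UTR, under a peak of 119 nt in replicate 2 and one of 124 nt in replicate 3. The match in Spry2 lay at chr14:105892499-105892505, position 298, under peaks of 231 and 156 nt in the same libraries. Peaks were read as padded by 30 nt on each side, and with this padding taken off the Spry1 match stayed covered in replicate 3 alone and the Spry2 match in replicate 2 alone.

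Neither match was covered in replicate 1. In Spry2 the nearest replicate 1 peak began 23 nt downstream of the first matched base, just past the match, whereas Spry1 had no replicate 1 peak on its own strand. Accordingly, 0 of the 31 recurrent regions held a miR-21a-5p match, and 57 of 7773 recurrent regions over all genes did (0.733%). With replicate 1 left out, 2 of 60 regions of the 9 genes held it, those of Spry1 and Spry2, against 0.693% of 25525 regions over all genes. Over all 3′UTRs there were 459 8mers to this seed, of which 46, 111 and 105 were covered in replicates 1, 2 and 3. The pattern of the Sprouty matches, covered in replicates 2 and 3 and not in 1, was shown by 34 of them (7.41%), while 18 (3.92%) were covered in every library. With trimmed peaks 21 of the 459 showed it and neither Sprouty match did.

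**Figure D3:**
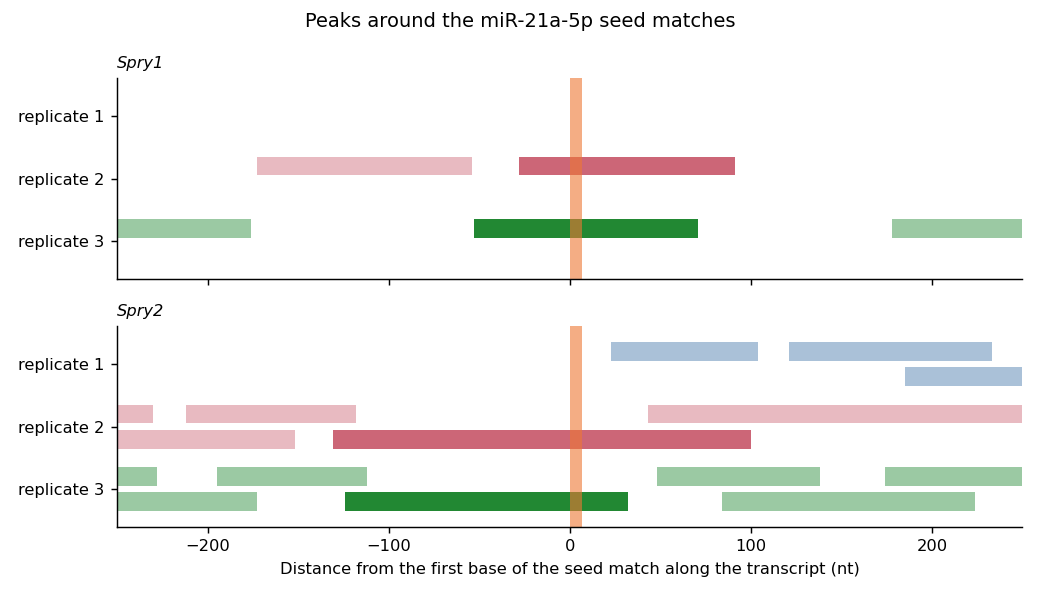
Peaks around the miR-21a-5p seed matches of Spry1 and Spry2 in each library, in nt from the first matched base along the transcript. Dark bars cover the match (orange line) and pale bars do not: 1 peak each in replicates 2 and 3 covers either match as deposited (in Spry1 replicate 2 and Spry2 replicate 3 only through the outer 30 nt, taken as padding), and the nearest replicate 1 peak in Spry2 starts at 23 nt.

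Spry4 had many peaks in replicates 2 and 3 but few in replicate 1. Its 3′UTR of 3559 nt (chr18:38586247-38589805, minus strand) held 4, 25 and 26 peaks in replicates 1, 2 and 3, covering 10.9%, 64.3% and 63.0% of it. Replicates 2 and 3 were alike and replicate 1 far below them, at 80.6% of its length class against 92.9% and 93.0%. Leaving out replicate 1 gave Spry4 16 recurrent regions with 1594 nt in sum. With all 3 libraries there were 3, of 43, 122 and 109 nt, far apart at positions 774, 1682 and 3404. The last, close to the end of the 3′UTR, held an 8mer to miR-411-5p at chr18:38586362-38586368. A match to positions 2 to 8 of this miRNA, with or without a following A, was found in 0.373% of recurrent regions over all genes. Spry4 was also the gene with 1, 2 and 1 peaks on the opposite strand of its 3′UTR.

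The 3 Spred genes, whose proteins share a Sprouty-related domain, differed widely. Spred1 had the longest 3′UTR of the 9 genes, 4330 nt (chr2:117177950-117182279, plus strand), with 11, 36 and 33 peaks that covered 22.3%, 83.6% and 71.4% of it (59.1% ± 32.5, SD, n = 3). It lay above 92.6%, 98.2% and 95.7% of its length class. Its 9 recurrent regions, of 55 to 183 nt, summed to 804 nt and were spread from position 41 to position 3752. Of these 7 ended at or before position 1746, and the others began at position 3423 or later.

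Spred2 had 1, 17 and 7 peaks on its 3′UTR of 2579 nt (chr11:20021448-20024026, plus strand). They covered 3.41%, 55.8% and 25.4%, so here replicates 2 and 3 also lay well apart. Its ranks in its length class were also spread, above 54.1%, 89.8% and 71.8% of genes in replicates 1, 2 and 3. Its single recurrent region was 18 nt long and rested on 1 peak of 88 nt in replicate 1, and none was left when peaks were trimmed by 30 nt on each side or when at least 20 nt were required. The A and T content of that region was 22.2%, the lowest of the 31.

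Spred3 had 2, 6 and 10 peaks on 2697 nt (chr7:29158829-29161525, minus strand), covering 7.23%, 15.5% and 34.6%. It was called in every library, yet no stretch of 8 nt was shared by all of them. It lay above 71.4%, 60.6% and 78.6% of its length class in replicates 1, 2 and 3, and its mean of 19.1% ± 14.0 (SD, n = 3) was the lowest of the 9 genes. Leaving out replicate 1 or replicate 2 gave it 3 short recurrent regions in either case, with 113 and 93 nt in sum, and leaving out replicate 3 gave 0.

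The GTPase-activating proteins both carried recurrent regions. Rasa1, with a 3′UTR of 1324 nt (chr13:85214780-85216103, minus strand), held 5, 14 and 9 peaks that covered 36.9%, 71.6% and 73.4% (60.6% ± 20.6, SD, n = 3). It lay above at least 94.9% of its length class in each library. Its 5 recurrent regions summed to 389 nt, or 29.4% of the 3′UTR, and all lay between positions 71 and 784. The gene Ccnh is annotated across this 3′UTR on the other strand, and the opposite-strand peaks there numbered 1, 0 and 0 by midpoint.

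Nf1, the neurofibromin gene, had 6, 24 and 16 peaks on 3216 nt (chr11:79578397-79581612, plus strand). Coverage was 15.5%, 57.8% and 47.1% (40.1% ± 22.0, SD, n = 3), above 87.0%, 90.7% and 86.1% of its length class. The 4 recurrent regions were 24, 105, 81 and 106 nt long and began at positions 15, 661, 1028 and 2722. None of them held a match to a listed miRNA with hairpin peaks.

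Dusp6 was the most completely covered. Its 3′UTR of 1190 nt (chr10:99266300-99267489, plus strand) held 8, 4 and 7 peaks covering 48.6%, 100% and 86.4% (78.3% ± 26.6, SD, n = 3). It ranked above 97.6%, 98.5% and 97.3% of its length class. Replicate 2 had the fewest peaks and the highest coverage and its peaks were wide, with a median of 327.5 nt and a maximum of 662 nt, against 89.5 nt and 108 nt in replicate 1. The 5 recurrent regions took up 35.0% of the 3′UTR, and the last reached its annotated end.

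Seed matches under the recurrent regions were taken from a list of 100 miRNAs, of which 85 had a sequence and 44 of these had a hairpin overlapped by same-strand peaks in every library. On the opposite strand 0 of the 85 met that rule. Matches to the 44 seeds occupied 79 positions in the 3′UTRs of the 9 genes. Of these positions 10 were covered in every library, 67 in at least 1 (84.8%) and 12 in none. Over all 3′UTRs 31.6% of 105111 such positions were covered in at least 1 library and 2.11% in all of them, against 12.7% for the 9 genes, whose 3′UTRs were widely covered in any case. The 10 lay in 8 of the 31 recurrent regions (25.8%), and over all genes 21.8% of recurrent regions held at least 1 such match. Without replicate 1 both the regions, 60, and the miRNAs with hairpin peaks in the other libraries, 52, were more numerous, and 26 regions (43.3%) held such a match, where 32.3% of recurrent regions over all genes did under the same rule. With every peak trimmed by 30 nt on each side 2 of the 23 remaining regions (8.70%) held a match, against 9.12% over all genes. These were the miR-411-5p match of Spry4 and the neighbouring miR-144-3p and miR-186-5p matches of Rasa1. With all peaks as deposited the shares of 25.8% and 21.8% are close, and a match is a description of the letters in a region, not evidence of binding by that miRNA.

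Spred1 and Rasa1 held 7 of the 10 matches. They also held 9 and 5 of the 31 recurrent regions, and 16 each of the 79 match positions. In Spred1 the first recurrent region held a miR-137-3p match at chr2:117178027-117178033 and, 12 nt further on, a miR-31-5p match at chr2:117178039-117178045. A region starting at position 303 held the miR-186-5p 8mer at chr2:117178292-117178298, and the 1 after it held another miR-31-5p match at chr2:117178487-117178493. miR-31-5p matches, TCTTGCC, were present in 0.437% of recurrent regions over all genes, those to miR-137-3p, AGCAATA, in 0.746%, and those to miR-186-5p, ATTCTTT, in 1.62%.

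In Rasa1 the region starting at position 345 held the miR-223-3p 8mer at chr13:85215721-85215727, AACTGAC, found in 0.373% of all recurrent regions. The region starting at position 522 held miR-144-3p (ATACTGT, 1.51%) at chr13:85215544-85215550 and, 10 nt further along the transcript, miR-186-5p at chr13:85215534-85215540. The Mir223 and Mir144 hairpins, of miRNAs best known from blood cells, had 1 peak in each library. With peaks of 86 to 200 nt alone, the number of miRNAs with hairpin peaks in every library fell from 44 to 20. Those lost included miR-223-3p and miR-144-3p, and also miR-186-5p and miR-411-5p. The Rasa1 matches to miR-223-3p, miR-144-3p and miR-186-5p still stayed inside recurrent regions.

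Single matches were found in Spry2 and Dusp6. The miR-23a-3p 8mer of Spry2 lay at chr14:105892264-105892270, inside the longest recurrent region of that gene, and its letters, AATGTGA, occurred in 1.43% of all recurrent regions. The miR-381-3p match of Dusp6 lay at chr10:99266842-99266848 and its letters, CTTGTAT, occurred in 0.849%. The hairpins Mir23a and Mir381 had 1, 1 and 1 and 1, 3 and 1 peaks in replicates 1, 2 and 3.

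The letters of the recurrent regions were examined further for motifs known from 3′UTRs. The element TGTANATA, bound by Pumilio proteins, was present on the transcript strand in 5 of the 31 regions, in Spry2, Spred1, Nf1 and Dusp6, and in 4.04% of recurrent regions over all genes. The core of AU-rich elements, ATTTA, was present in 10 of the 31 regions and in 18.3% of all. The regions of the 9 genes were longer than those of all genes, with medians of 81 and 69 nt, and richer in A and T, at 68.7% against 64.2%, and the part of both in the motif counts was not tested. Within the genes, the regions of Spry4 were 70.4% A and T against 50.7% in the rest of its 3′UTR, and those of Nf1 70.3% against 55.4%. The difference ran the other way in Spry2, 65.4% against 67.0%, and in Spred2, 22.2% against 54.6%, where the single region was 18 nt long.

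Outside the 3′UTRs the same genes carried more peaks, with introns holding the most of any transcript part, when each peak was assigned by its midpoint. Over entire genes there were 319, 406 and 882 same-strand peaks in replicates 1, 2 and 3, against 87, 43 and 59 on the opposite strand. Midpoints in the 3′UTR made up 12.5%, 32.8% and 13.5% of these same-strand peaks, with a mean of 19.6% ± 11.4 (SD, n = 3). The Wilson bounds at the 95% level were 9.35 and 16.6% for replicate 1, 28.4 and 37.5% for replicate 2, and 11.4 and 15.9% for replicate 3. The intervals cover the counting of peaks only. Peaks of 1 gene often overlap and are not independent, so no difference between libraries is drawn from these bounds. Introns held 253, 178 and 630 of the peaks in replicates 1, 2 and 3.

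Per length the order was different. The 3′UTRs of the 9 genes had 1.86, 6.20 and 5.54 peaks per kb in replicates 1, 2 and 3, coding sequences 0.862, 4.05 and 5.02, and introns 0.546, 0.384 and 1.36. The 3′UTRs were above the introns in each library and above the coding sequences by a margin that was small in replicate 3. In replicate 3 Spred1, Rasa1 and Nf1 had the most intron peaks, with 178, 198 and 184, whereas in replicate 1 they had 54, 51 and 88 and Spred2 had 53. Nf1 also had 39, 17 and 21 opposite-strand intron peaks, and the genes Omg, Evi2, Evi2a and Evi2b are annotated inside it on that strand.

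**Figure D4:**
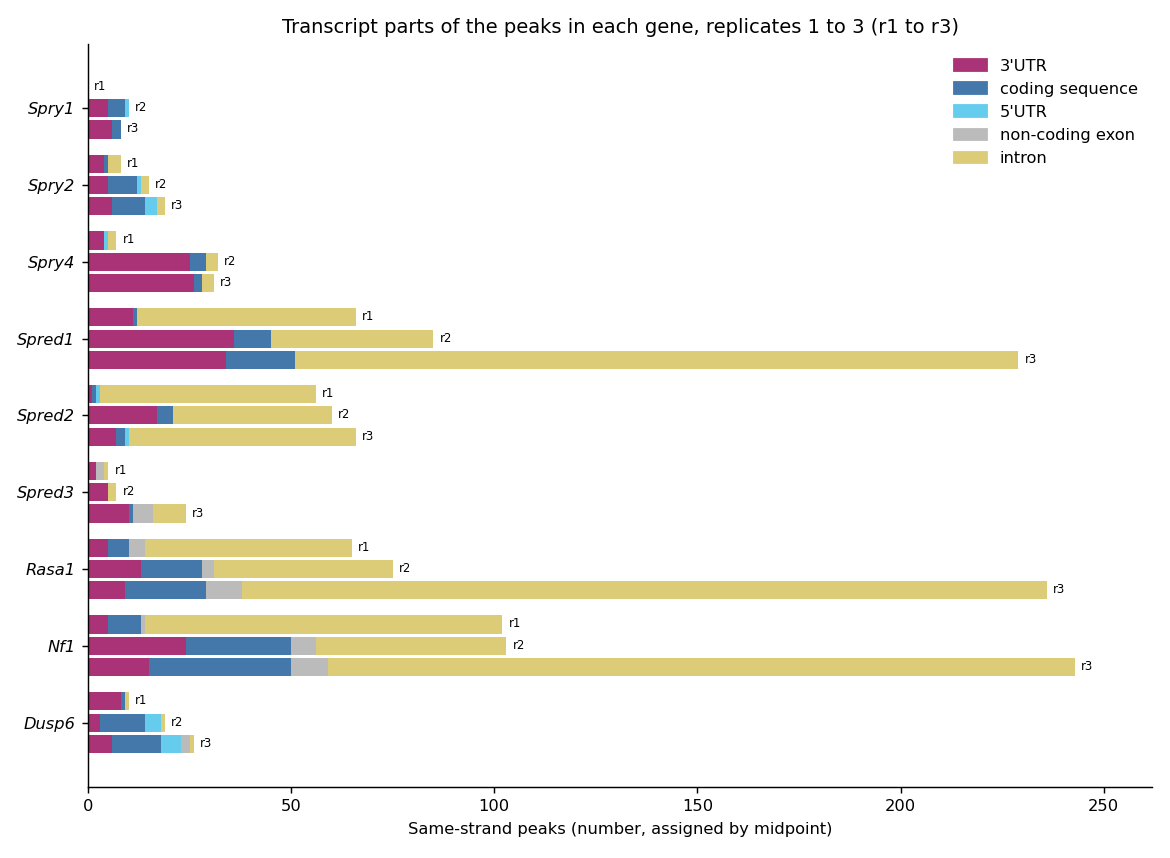
Number of same-strand peaks in each gene by transcript part (colours, by midpoint) in replicates 1 to 3 (r1 to r3). In replicates 1 and 3 introns hold most peaks of Spred1, Spred2, Rasa1 and Nf1, while the 3′UTR holds most of those of Spry4 in replicates 2 and 3, with 25 and 26.

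Stretches covered in every library were also found outside the 3′UTRs, though they were fewer and shorter in sum. Coding sequence had 6 with 361 nt, introns 12 with 789 nt, non-coding exons 1 of 59 nt in Nf1, and 5′UTRs 0. Rasa1 held 3 of the 6 coding stretches, the longest of 96 nt at chr13:85226527-85226622. Spred1 held 6 of the 12 intron stretches and Rasa1 4, and the longest intron stretch was 155 nt in Dusp6 (chr10:99265891-99266045).

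Other genes between receptors and ERK were examined from a list in which 50 had a 3′UTR in the annotation and Spry3 was not matched. A peak in every library was found on 33 of the 50 (66%), where the share over all genes was 23.9%, and a recurrent region in 23 (46%), where it was 14.3%. These genes had a median 3′UTR of 1706 nt, longer than most. Within the class of 1305 to 2385 nt 9 of 15 had a peak in every library and 5 a recurrent region. The shares of that class were 33.8% and 20.1%. In the class above it 14 of 16 and 11 did, beside 51% and 30.3%. In the class of 686 to 1304 nt 7 of 10 and 6 did, beside 20.8% and 12.7%. In that of 282 to 686 nt 3 of 9 and 1 did, and the shares of that class were not computed. By role, the first count was 7 of 11 for RAS with its exchange factors and adaptors, 4 of 8 for other RAS GTPase-activating proteins, 5 of 8 for RAF, MEK, ERK and scaffolds, 6 of 8 for other MAP kinase phosphatases, 6 of 8 for other feedback inhibitors and 5 of 7 for transcription factors that respond to ERK. Most regions were found in Nras, 1 of the RAS genes themselves, with 9, the same number as in Spred1. Rasa2, a relative of Rasa1, and the kinase Braf had 6 each, the adaptor Frs2 had 5, and the ubiquitin ligase Cbl had 4. Recurrent Ago2 peaks thus lay on genes that drive the cascade as well as on its inhibitors.

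**Figure D5:**
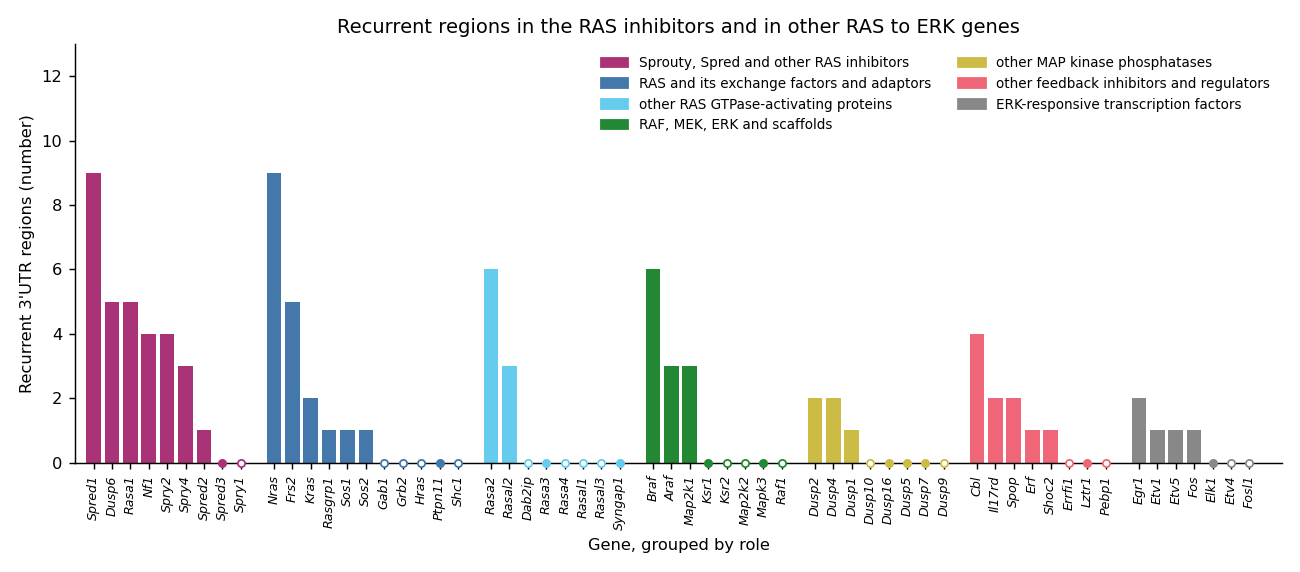
Recurrent 3′UTR regions in the 9 RAS inhibitors and in 50 other genes of the RAS to ERK cascade, grouped by role. Dots mark genes with 0 regions, filled where a peak was present in every library. Nras and Spred1 have 9 regions each.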

How the data were processed

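Ago2 HITS-CLIP peaks of 3 samples of N2A cells, 1 group, were analysed. The authors called peaks per sample and deposited them as intervals with a score in a single table. The submitters' processing notes name FastQC, cutadapt, STAR and mm10, without versions, and the peak caller and its threshold are not given in the sources used here. The deposited score has no stated unit, was 60 for 98.9%, 99.3% and 99.6% of peaks in replicates 1, 2 and 3, and was not used. Further columns with per-sample values numbered 0.

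Starts, which went down to -30, were read as counted from 0, and peaks as padded by 30 nt on each side. Annotation was GENCODE mouse M21 and sequence RefSeq GRCm38.p6, both of the build that mm10 names. For each gene on the 21 primary chromosomes, the longest 3′UTR among protein-coding transcripts was taken, without the stop codon. A peak counted on a 3′UTR with an overlap of at least 1 nt on the same strand. Peaks were assigned to transcript parts by midpoint, in the order 3′UTR, coding sequence, 5′UTR, non-coding exon and intron. A seed match had to lie wholly inside a region, and a miRNA had hairpin peaks where 1 of its hairpins was overlapped on its strand in every library.

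The genes, the lists of pathway genes, miRNAs and markers, and the definitions were chosen with earlier results of these data known. With a single group no test between conditions exists, and counts were set beside those over all genes. The text names the 9 genes, the 5 pathway genes with the most recurrent regions (1 gene of the pathway list is not reported here and was left out of its counts), every miR-21a-5p match and every match in a recurrent region to a listed miRNA with hairpin peaks. Alternatives were each replicate left out, 2 of 3 libraries, peaks of 86 to 200 nt, peaks trimmed by 30 nt, merged 3′UTR exons, midpoint assignment, regions of at least 1 or 20 nt, and other site types. Region finding, calls and site search were tested on simulated data. The software was pysam 0.24.0, matplotlib 3.10.9, pandas 2.3.3, scipy 1.17.1 and numpy 2.4.6 under Python 3.11.15.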

Additional observations from a re-analysis of the deposited data

How the results depend on the processing

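Of 57 values under alternatives, 47 stayed within the limits of the main value (1.5 times for counts, 1 SD for the 3′UTR share) and 10 did not. The number of recurrent regions, 31, ranged from 32 to 60 with each replicate left out, 60 without replicate 1, and was 63 with at least 2 of the 3 libraries and 15 with peaks of 86 to 200 nt, where Spry2 and Dusp6 had 0. Regions with a miR-21a-5p match, 0, ranged from 0 to 2 with each replicate left out, 2 without replicate 1, and were 2 with at least 2 libraries. Regions with a match to a listed miRNA with hairpin peaks, 8, ranged from 8 to 26 with each replicate left out, 26 without replicate 1, and were 24 with at least 2 libraries, 2 with peaks of 86 to 200 nt, 2 with trimmed peaks (where the summed length of regions fell from 2509 to 624 nt) and 4 with 8mers alone. With peaks of 86 to 200 nt the number of miRNAs with hairpin peaks in every library also fell from 44 to 20, and without replicate 1 it rose to 52. Counting a seed where any miRNA sharing it had hairpin peaks, an alternative chosen after seeing the data, gave 9 of 31 regions (29.0%), against 24.8% over all genes. The number of the 9 genes with a peak in every library was 8 or 9 and that of genes with a recurrent region 5 to 9 under all alternatives run. No paired analysis was possible because there is a single group. Without read counts, the counting error of a peak cannot be given. Replicate 1 had the largest share of peaks of at most 85 nt, and its part in the results was tested only by leaving it out.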

Other observations

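Among the listed miRNAs without hairpin peaks in every library, 9 further seed matches lay in recurrent regions of the RAS inhibitors. Spry2 held 8mers to miR-27a-3p and miR-134-5p in the region that also held its miR-23a-3p match. Matches to miR-181a-5p lay in Spred1 and, as an 8mer, in Spry4. Their letters, TGAATGT, occurred in 1.33% of recurrent regions over all genes, and miR-181d-5p, which has the same seed, had hairpin peaks in every library. The others were to miR-9-3p in Spry4, miR-369-3p in Spred1, miR-205-5p in Nf1, and miR-200a-3p and miR-495-3p in Dusp6.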
